A study of Homo sapiens with 3 samples.

Results

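The genes of 8 transcription factors of the kidney lineage (PAX8, PAX2, LHX1, HNF4A, HNF4G, WT1, EMX2 and TFAP2A) were examined for lactylation of histone H4 at lysine 12 (H4K12la). They are 8 of 19974 protein-coding genes on chromosomes 1 to 22 and X. They were taken from a given list, and every deposited peak that overlapped a gene's RefSeq span extended by 50 kb on each side was counted to that gene. The windows held 47 of 62777 peaks in 786-O replicate 2, then 36 of 60760 in Caki-1 replicate 1 and 49 of 67839 in Caki-1 replicate 2. All 8 windows held a peak in 786-O (91.2% of all genes), against 6 in Caki-1 replicate 1 (88.5%) and 7 in replicate 2 (89%).

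Chromatin with the mark was profiled by CUT&Tag, a method where an antibody tethers a transposase to chromatin and the tagged DNA is sequenced. Both groups were untreated human renal carcinoma lines. 786-O is a clear cell carcinoma line without functional VHL, and 1 library of it (replicate 2) was used. Caki-1, a line from a metastasis that retains VHL, gave 2 libraries (replicates 1 and 2). Each is an established line of tumour cells, and nothing in the labels separates the Caki-1 replicates by culture, so their spread may be technical.

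Lactyl groups on histone lysines derive from lactate and have been associated with transcribed chromatin. The nephron forms from progenitors in which PAX2, PAX8, WT1 and LHX1 act at overlapping steps, HNF4A is a master regulator of the mature proximal tubule, and PAX8 stays on in most renal carcinomas. A peak reports chromatin that carried the mark, not RNA or protein, and a missing peak reports only that none was called.

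Positions are on GRCh38. Neither read depth nor peak caller is stated in these sources, so a difference in peak number between libraries cannot be told apart from depth. The 3 lists covered 36.4, 36.5 and 45.2 Mb in the order 786-O replicate 2, Caki-1 replicate 1 and Caki-1 replicate 2. Each peak carries a score deposited by the authors, given here as a percentile rank within its own list, where 100 is the highest score. Ranks of several libraries are printed side by side to place each peak in its own list, and a difference in rank between lists is not read as a change. With 1 library of 786-O against 2 of Caki-1, the 3 possible labelings allow no p below 0.333, so no test between the lines was made. Among the markers of tubule epithelium and renal carcinoma, 5 of 10 genes had a peak within 1 kb of an end in 786-O, against 5 and 7 in the Caki-1 replicates. Over all protein-coding genes the shares were 52.7%, against 55.1% and 57.6%, so these markers were near the background. VIM, KRT8, KRT18 and CDH16 had one in all 3 libraries, while CA9, CUBN and NNMT had none. KRT8 and KRT18 overlap and had the same end rank in each library, so they do not count as separate markers, and the 10 markers include PAX8, one of the 8 genes. Of 5 fibroblast, 5 endothelial and 5 leukocyte markers, 2, 1 and 1 had one in 786-O. The counts for replicate 1 of Caki-1 were 2, 1 and 1, and those for replicate 2 were 2, 0 and 1, lists too short to set against these shares.

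The lines differed in which of these genes were marked at their annotated starts. In 786-O the marked starts were the first of WT1 and the second of PAX2. Peaks also lay upstream of the second starts of WT1 and TFAP2A. They touched 33 and 48 of the 300 bases of the promoter windows and did not reach the starts. In Caki-1 they were the start of PAX8 and the first start of TFAP2A, each in both replicates. HNF4G was marked at its lower annotated end in all 3 libraries. HNF4A and EMX2 had no peak at an annotated start or end in any library. LHX1, for which no start was on hand, had none at either annotated end.

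RefSeq promoter windows, which run from 250 bases before to 50 bases after a start, were on hand for 6 of the 8 genes and numbered 12, since several genes have more than 1 start. In 786-O 4 of the 12 were touched by a peak (44% of the 22132 windows of all protein-coding genes), against 2 in each Caki-1 replicate (47.3% and 50% of all windows). The same 2 windows were covered in both replicates. Of the 12 windows, 4 were touched in 786-O and bare in both Caki-1 libraries, against 3.03% of all windows. Another 2 were covered in both Caki-1 libraries and bare in 786-O, against 6.99% of all windows. None of the 12 was covered in all 3 libraries, against 37.2% of all windows, and 6 were covered in none, against 43.8%. With most of the window required to be covered (an alternative chosen after the data were seen), 2 windows of 786-O were left, the first of WT1 and the second of PAX2, while the Caki-1 counts stayed at 2. Counted by gene over the 6 genes, 3 had a covered window in 786-O (WT1, PAX2 and TFAP2A; 50% of all genes with an entry), against 2 in each Caki-1 replicate (PAX8 and TFAP2A; 53.5% and 55.8%). WT1 and PAX2 were covered in 786-O alone (2.95% of all genes), PAX8 in both Caki-1 libraries alone (7.11%), and TFAP2A in all 3 (43.3%), though at different starts. TFAP2A counted in 786-O only through 48 bases at its second start. With most of the window required, it was covered in the Caki-1 libraries alone.

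The 5 windows below are those of the 6 at which the lines parted, leaving out the second WT1 start, which a peak touched over 33 bases. They are the RefSeq sequences on GRCh38.p14, read 5′ to 3′ along the gene, with the annotated start after base 250, and capitals mark matches to 4 short motifs on either strand. These were the TATA box (TATAAA), the CCAAT box (CCAAT), the GC box (GGGCGG) and the core of the hypoxia response element (ACGTG), none of which overlaps another here.
PAX8 start, chr2:113278872-113279171, minus strand, covered in Caki-1: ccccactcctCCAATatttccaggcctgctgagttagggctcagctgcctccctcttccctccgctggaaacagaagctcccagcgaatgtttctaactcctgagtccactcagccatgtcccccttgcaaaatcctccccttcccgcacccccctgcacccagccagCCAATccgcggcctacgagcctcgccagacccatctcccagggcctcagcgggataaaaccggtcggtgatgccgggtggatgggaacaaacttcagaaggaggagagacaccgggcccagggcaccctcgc
TFAP2A first start, chr6:10419610-10419909, minus strand, covered in Caki-1: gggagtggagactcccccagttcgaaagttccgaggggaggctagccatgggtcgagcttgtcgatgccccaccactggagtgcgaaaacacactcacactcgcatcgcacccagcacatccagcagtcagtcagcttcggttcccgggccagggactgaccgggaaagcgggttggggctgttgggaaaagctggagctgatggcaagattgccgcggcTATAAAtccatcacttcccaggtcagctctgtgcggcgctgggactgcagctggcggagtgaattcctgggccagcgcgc
TFAP2A second start, chr6:10412342-10412641, minus strand, touched in 786-O: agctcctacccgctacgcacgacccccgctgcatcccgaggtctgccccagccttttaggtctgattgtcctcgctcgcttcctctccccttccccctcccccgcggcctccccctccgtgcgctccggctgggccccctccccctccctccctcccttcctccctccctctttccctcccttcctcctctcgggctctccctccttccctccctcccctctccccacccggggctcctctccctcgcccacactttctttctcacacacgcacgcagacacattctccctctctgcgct
PAX2 second start, chr10:100745332-100745631, plus strand, covered in 786-O: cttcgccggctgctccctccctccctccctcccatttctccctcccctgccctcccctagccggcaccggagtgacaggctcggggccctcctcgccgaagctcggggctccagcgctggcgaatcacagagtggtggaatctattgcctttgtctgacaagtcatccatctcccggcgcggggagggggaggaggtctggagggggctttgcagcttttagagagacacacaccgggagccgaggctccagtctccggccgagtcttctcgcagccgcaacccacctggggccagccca
WT1 first start, chr11:32435490-32435789, minus strand, covered in 786-O: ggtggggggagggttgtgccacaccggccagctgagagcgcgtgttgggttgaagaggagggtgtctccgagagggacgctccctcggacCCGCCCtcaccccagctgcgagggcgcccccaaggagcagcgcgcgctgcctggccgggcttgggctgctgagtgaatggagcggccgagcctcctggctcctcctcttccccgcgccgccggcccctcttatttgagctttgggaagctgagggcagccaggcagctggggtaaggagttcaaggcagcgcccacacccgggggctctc

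The PAX8 window held 2 CCAAT boxes, a motif found in 34.6% of 22132 promoter windows. The first TFAP2A window held 1 TATA box, found in 9.46%, and the WT1 window 1 GC box, found in 56.3%. Neither the second TFAP2A window nor the second PAX2 window held any of the 4, and the core hypoxia element, found in 23.1% of windows, was in none of the 5. The windows held 13 CpG dinucleotides at PAX8, 18 and 18 at the first and second TFAP2A starts, 19 at PAX2 and 21 at WT1, against a median of 21 over all windows. A match is a string of letters and not a bound site.

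**Figure D1:**
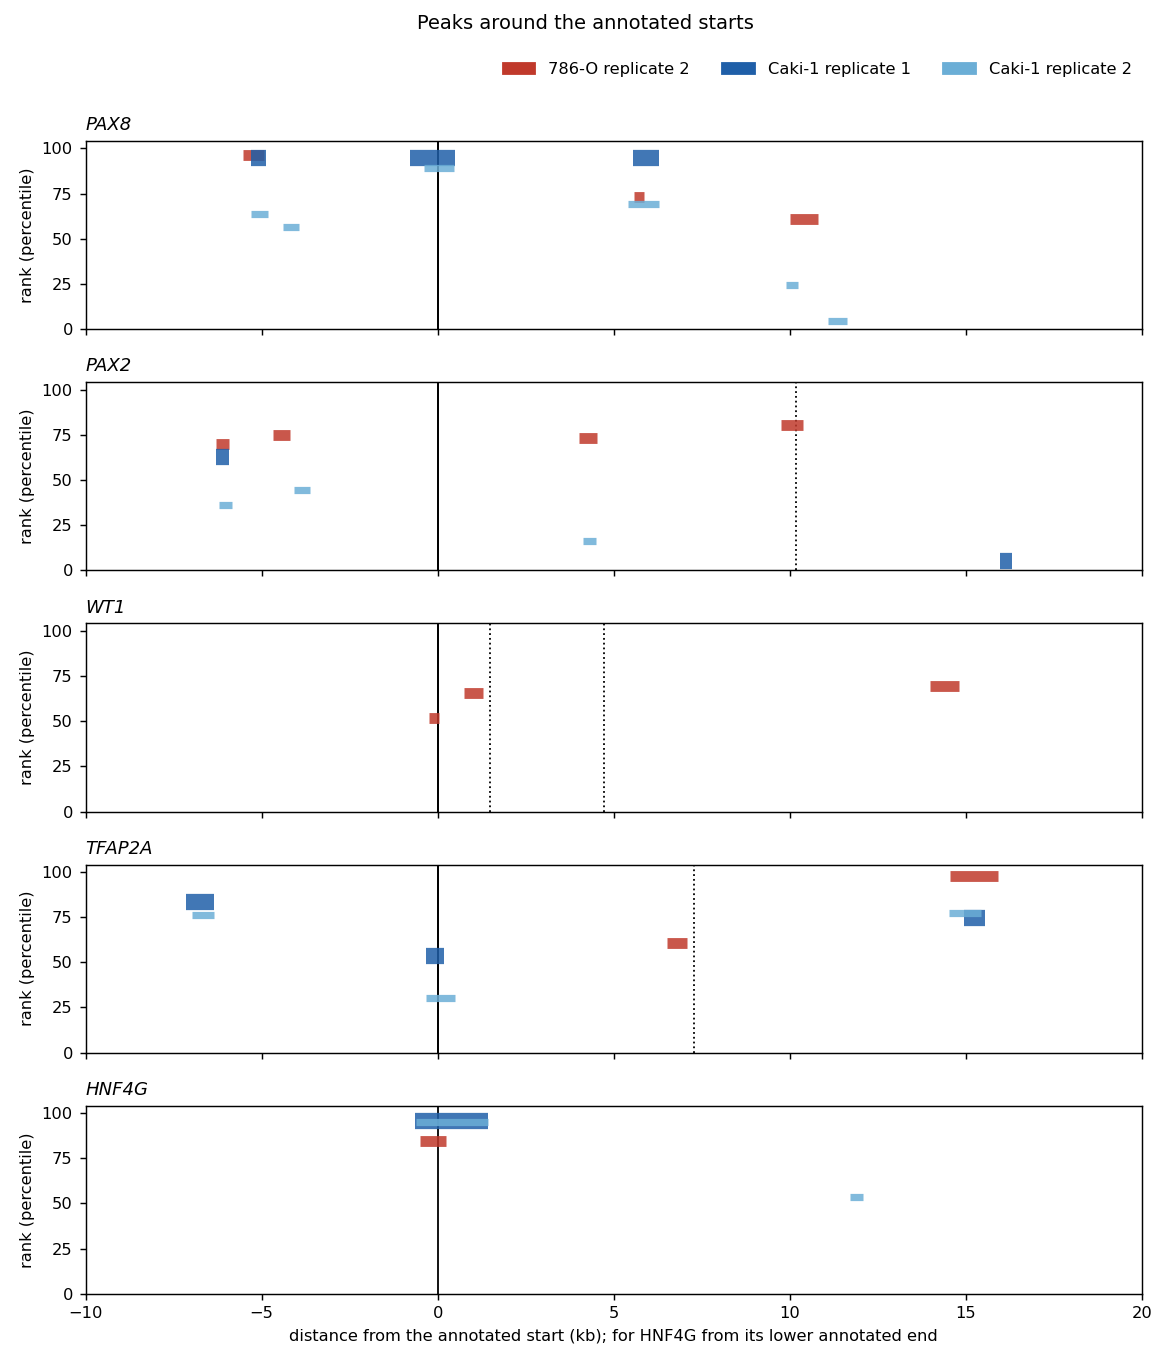
Peaks from 10 kb before to 20 kb after the annotated start of 5 genes, with the percentile rank of each peak within its own list on the y axis and line colour for the library. Solid vertical lines mark the outermost start and dotted lines further starts. Blue Caki-1 peaks cross the solid line at PAX8 and TFAP2A. Red 786-O peaks cross the solid line of WT1 and the dotted line of PAX2. All libraries meet at HNF4G, which is drawn from its lower annotated end.

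PAX8, the paired-box factor used to trace renal origin, spans 113215997 to 113278921 on chromosome 2 on the minus strand. Its window held 8 peaks in 786-O, against 12 and 13 in the Caki-1 replicates. At the start itself Caki-1 had a peak of 1272 bp in replicate 1 (113278439 to 113279710, rank 94.8) and of 850 bp in replicate 2 (113278467 to 113279316, rank 88.9), each over all 300 bases of the promoter window. The nearest 786-O peak lay 4694 bp outside that window.

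That 786-O peak, 5.23 kb upstream of the PAX8 start (113283865 to 113284446), had a rank of 96.1. Caki-1 was marked at the same place, with ranks of 94.5 and 63.5, so the upstream site was common to the lines and the start was not. Within the gene, a site 5.85 kb downstream of the start was also found in all 3 libraries, with a rank of 73.3 in 786-O, against 94.8 and 69.0 in the Caki-1 replicates.

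The highest-ranked PAX8 peak of 786-O lay 37.7 kb into the gene (113240552 to 113241810, 1259 bp, rank 96.8), inside the antisense transcript PAX8-AS1. Caki-1 had peaks there of 1058 and 894 bp with ranks of 87.7 and 64.7. A further site 52.8 kb into the gene in 786-O had a rank of 85.5, against 80.8 and 84.5 in the Caki-1 replicates. A site 74.7 kb from the start in 786-O, past the far end of PAX8 and inside the neighbouring gene PSD4, had a rank of 76.4, against 91.3 and 85.8.

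Besides the start, 4 merged regions near PAX8 were present in both Caki-1 replicates and absent from 786-O. They lay 58.6 and 44.7 kb into the gene (ranks 88.5 and 82.1, and 72.3 and 66.4), 79.8 kb from the start inside PSD4 (76.2 and 64.7), and 46.1 kb upstream at the ends of LOC105373567 and LINC02966 (72.3 and 93.1). 786-O alone had 2 regions, 69.2 kb from the start just past the end of PSD4 (rank 60.9) and 23.1 kb into PAX8 (rank 63.3). Of all 17 merged regions at PAX8, 5 were in all 3 libraries.

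PAX2, the related paired-box factor of the nephric duct and early nephron, spans 100735396 to 100829944 on chromosome 10 on the plus strand. It had 11 peaks in 786-O, against 3 and 6 in the Caki-1 replicates. The 786-O peak over the second start (100745138 to 100745768, 631 bp) covered all 300 bases of that window and had a rank of 80.3, the highest of the PAX2 window in 786-O. The nearest Caki-1 peaks lay 5740 and 5437 bp from the window in replicates 1 and 2. The first PAX2 start had no peak in any library.

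Of 14 merged regions at PAX2, 7 were covered in 786-O alone, 2 in all 3 libraries and 0 in both Caki-1 replicates without 786-O. The 2 common sites lay 6.11 kb upstream of the first start (rank 69.7 in 786-O, against 62.7 and 36.0 in the Caki-1 replicates) and 143 kb downstream of it, past the far end of the gene (rank 40.3, against 76.2 and 87.8). Regions of 786-O alone that ranked above 50 included, beside the second start, sites 38.2 and 4.43 kb upstream, with ranks of 58.1 and 74.9. A peak of Caki-1 replicate 2 with a rank of 44.7 lay near the last of these, 3.85 kb upstream, without overlapping it.

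WT1, the zinc finger regulator of nephron progenitors and podocytes, showed the plainest difference. It spans 32387775 to 32435539 on chromosome 11 on the minus strand, and its window held 5 peaks in 786-O and 0 in both Caki-1 libraries. Of all protein-coding genes, 3.87% had any peak in the window in 786-O and none in either Caki-1 library. Those with 5 or more peaks in 786-O and none in Caki-1 numbered 88 (0.441%), a cutoff chosen after the WT1 values were seen.

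The peak at the outer WT1 start (32435501 to 32435784, 284 bp, rank 51.9) lay within the first promoter window and also over the first bases of the antisense gene WT1-AS. A second 786-O peak (32434258 to 32434785, 528 bp, rank 65.6) lay 1.02 kb into the gene and touched 33 bases of the second promoter window. The third, 14.4 kb into the gene (32420741 to 32421553, 813 bp), had the highest rank at 69.7. The others lay past the far end of WT1, 54.1 and 81.6 kb from the start, with ranks of 58.1 and 15.4. All 5 ranked under 70 in the 786-O list.

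In both Caki-1 libraries the nearest peak to the WT1 start was 122 kb away. The stretch without a Caki-1 peak around the gene ran for 250 kb in replicate 1 and 261 kb in replicate 2, and 786-O had 6 peaks in the part common to both. In the flanks of 1 Mb on each side of the WT1 window, 786-O had 64 peaks, against 49 and 56 in the Caki-1 replicates. Chromosome 11 held 4.21% of the 786-O peaks, against 3.66% and 3.63% of those of Caki-1. The part of regional peak number in the WT1 result was not tested.

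TFAP2A, which encodes AP-2 alpha, a factor of neural crest and epithelia that also acts in the distal nephron of zebrafish, had the same number of peaks in all 3 libraries, 6 in 786-O, against 6 and 6 in the Caki-1 replicates. It spans 10396677 to 10419659 on chromosome 6 on the minus strand. At its outer start Caki-1 had peaks of 494 bp (10419491 to 10419984, rank 53.6) and 811 bp (10419176 to 10419986, rank 30.2), each over the whole first window. 786-O had none there. Its peak (10412594 to 10413155, 562 bp, rank 60.9) lay 6.78 kb into the gene, beside the second start, and reached over 48 of the 300 bases of the second window, inside the antisense gene TFAP2A-AS1 near its lower end.

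The highest-ranked TFAP2A peak of 786-O lay 15.2 kb into the gene at an end of TFAP2A-AS2 (10403741 to 10405098, 1358 bp, rank 97.8), and Caki-1 had peaks there of 608 and 930 bp with ranks of 74.3 and 77.4. Sites 21.8 and 32.4 kb upstream and 36.2 kb downstream of the start were also in all 3 libraries. In both Caki-1 replicates a further peak lay 6.74 and 6.66 kb upstream at the end of LOC107986564 (ranks 83.5 and 76.1), with no peak in 786-O. The flanks of 1 Mb held 39 peaks in 786-O, against 18 and 18 in the Caki-1 replicates, and chromosome 6 held 6.55% of the peaks of 786-O, against 3.24% and 3.25% of those of Caki-1. The equal counts in the TFAP2A window thus stood in a region with more peaks in 786-O, and the part of the region in them was not tested.

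HNF4G, a nuclear receptor close to HNF4A, spans 75407649 to 75566834 on chromosome 8. The promoter table holds no entry for HNF4G or LHX1, so distances for both were counted from the lower annotated end. HNF4G was the only one of the 8 genes with a gene-end peak in all 3 libraries, a pattern shared by 44.3% of all protein-coding genes. The peak at its lower end measured 721 bp in 786-O (75407153 to 75407873, rank 84.6), against 2074 bp (75407013 to 75409086, rank 95.5) and 2037 bp (75407042 to 75409078, rank 94.9) in Caki-1. The summit in 786-O was at base 75407367, the same as in replicate 1 of Caki-1. The median peak width of the lists was 497 bp in 786-O, against 520 and 576 bp in the Caki-1 replicates, and the wider Caki-1 peaks reached further into the gene.

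Caki-1 alone had a second HNF4G peak within 1 kb of the higher end, with ranks of 19.3 and 32.6. The rest of the HNF4G window held lower-ranked peaks, 6 in 786-O with ranks of 1.96 to 15.4, against 1 and 8 in the Caki-1 replicates, of which none ranked above 56.3. Of its 14 merged regions, 1 was common to all 3 libraries, the one at the lower end.

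HNF4A spans 44355699 to 44434596 on chromosome 20 on the plus strand, and neither of its starts was marked. Its window had 2 peaks in 786-O, against 5 and 4 in the Caki-1 replicates. Both 786-O peaks lay at neighbouring genes, at the higher end of FITM2 (44310543 to 44311351, rank 58.1) and at the lower end of R3HDML (rank 35.9). Caki-1 had 1 peak inside HNF4A in each replicate, 57.1 kb into the gene with a rank of 19.3 and 15.2 kb into it with a rank of 32.6, so the 2 replicates did not mark the same place. The highest-ranked Caki-1 peaks of the window, with ranks of 70.1 and 71.2, lay 120 kb from the start at the lower end of TTPAL.

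LHX1, a LIM homeobox factor of the early nephron, spans 36936785 to 36944612 on chromosome 17. Its window had 7 peaks in 786-O, against 7 and 9 in the Caki-1 replicates, but none within 1 kb of either end of the gene. The nearest to the lower end were 11745 bp away in 786-O, against 1706 and 4513 bp in the Caki-1 replicates. That 786-O peak lay past the higher end of LHX1, and all 3 libraries had a peak within 5 kb of an end. The peak with the highest rank in both Caki-1 replicates (96.5 and 98.1) lay at the lower end of the neighbouring gene AATF, where 786-O had a rank of 88.7.

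The highest-ranked LHX1-window peak of 786-O (36920785 to 36921914, 1130 bp, rank 95.7) lay 15.4 kb below LHX1 inside the divergent noncoding gene LHX1-DT. Caki-1 had peaks of 992 and 1059 bp there, with ranks of 84.6 and 91.1. A smaller site 18.3 kb below the gene was also in all 3 libraries, with a rank of 84.6 in 786-O, against 80.8 and 26.0. A peak inside LHX1 was called in Caki-1 replicate 2 alone (444 bp, rank 58.2).

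EMX2, a homeobox factor of urogenital development, spans 117542746 to 117549546 on chromosome 10 on the plus strand and was nearly bare. 786-O had 1 peak, 43.5 kb downstream of the start, near the bottom of its list (rank 0.341). Caki-1 replicate 1 had 0, and replicate 2 had 1 inside the gene (117547215 to 117547788, rank 44.7). No EMX2 region was seen in more than 1 library.

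**Figure D2:**
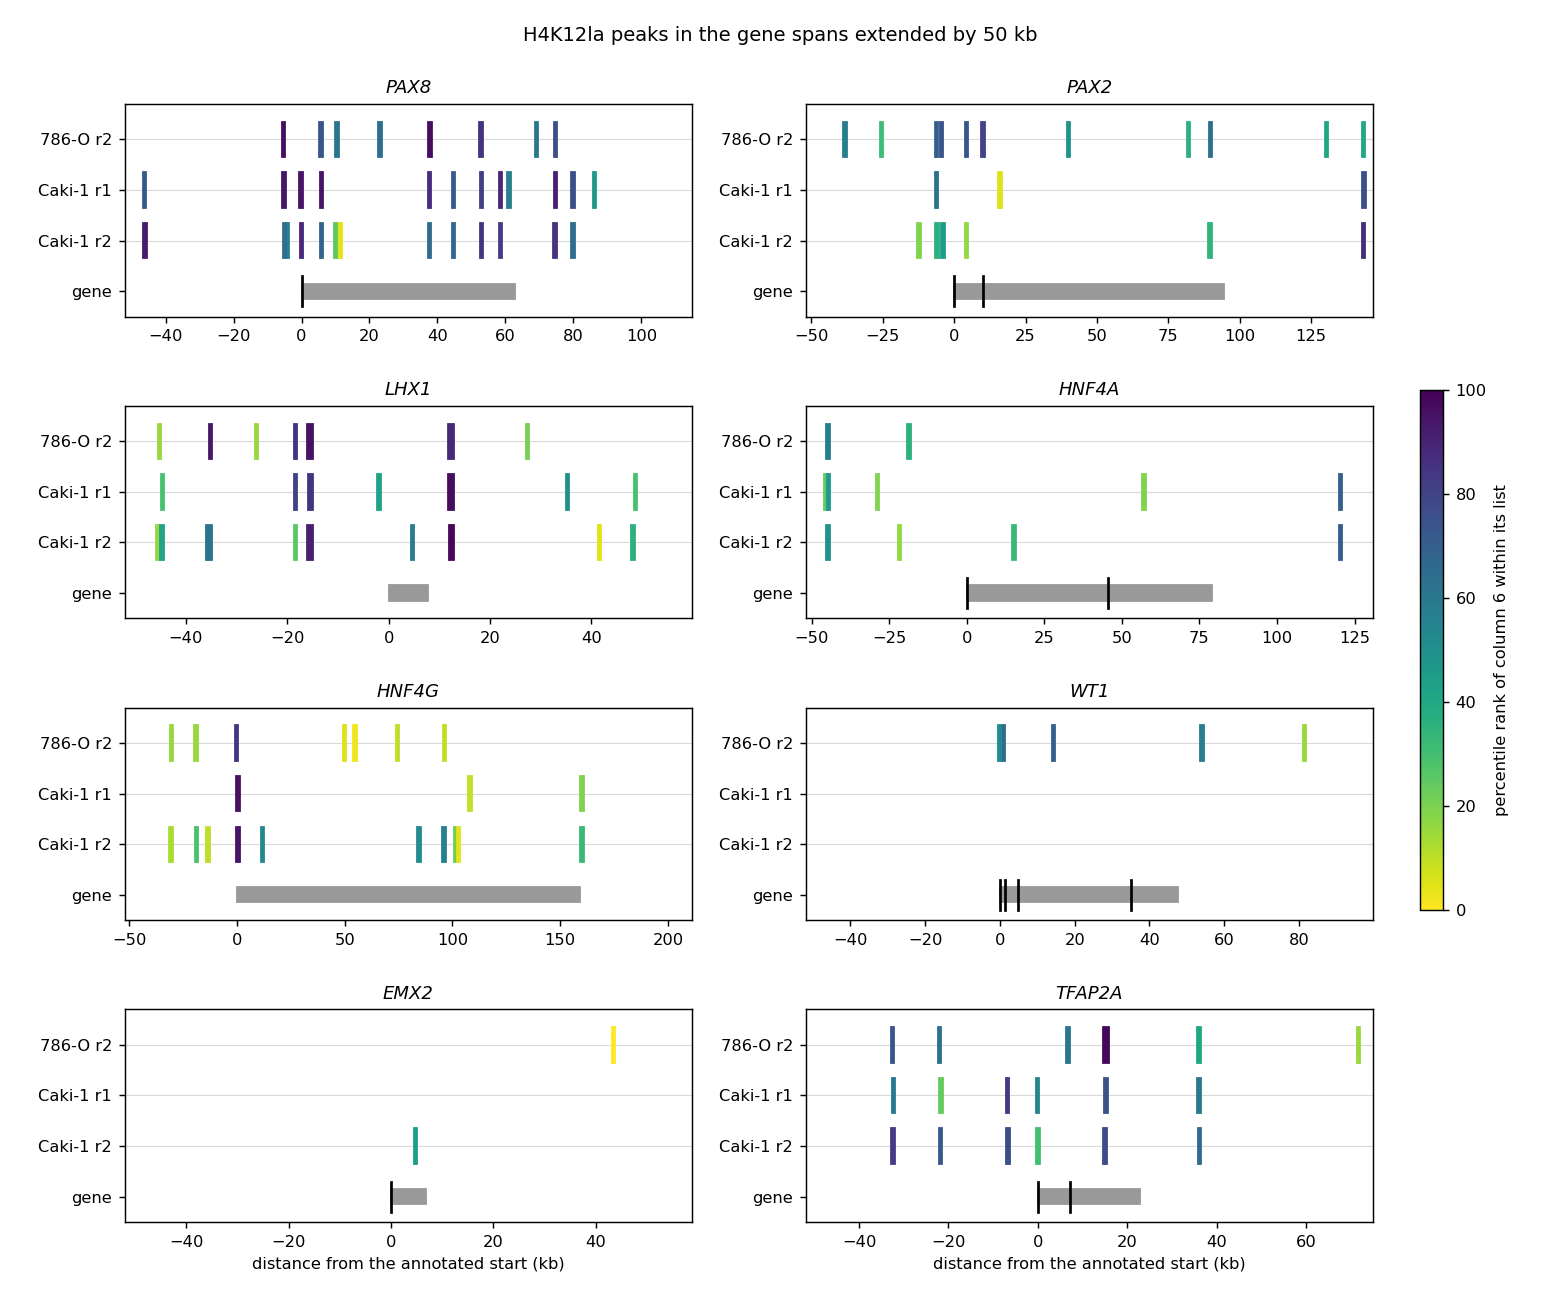
Peaks of the 3 libraries in the 8 gene windows, drawn along the gene by distance from the annotated start in kb (from the lower annotated end for LHX1 and HNF4G). Bars are peaks coloured by percentile rank within their list, narrow peaks are drawn at a minimum width, the grey bar is the gene and black ticks are annotated starts. The WT1 panel holds bars in the 786-O row only, and EMX2 holds 1 bar in 786-O, 0 in Caki-1 replicate 1 and 1 in replicate 2.

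By peak density, the 8 genes ranged from 0.936 peaks per 100 kb of window at EMX2 to 6.49 at LHX1 in 786-O. In Caki-1 replicate 1 they ranged from 0 at WT1 and EMX2 to 7.37 at PAX8, and in replicate 2 from 0 at WT1 to 8.35 at LHX1. The order in 786-O was LHX1 (6.49), PAX2 (5.65), PAX8 (4.91), TFAP2A (4.88), WT1 (3.38), HNF4G (2.70), HNF4A (1.12) and EMX2. Medians over the 8 genes were 4.13 in 786-O, against 2.17 and 3.47 in the Caki-1 replicates, and medians over all protein-coding genes were 3.60, 3.37 and 3.78 in the same order.

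The Caki-1 replicates differed by 2.70 peaks per 100 kb at HNF4G, 1.85 at LHX1 and 1.54 at PAX2, and by 0 at WT1 and TFAP2A. Set against this spread, neighbours in the 786-O order such as PAX8 and TFAP2A are not separated. The 786-O density lay above both Caki-1 values at PAX2 (5.65, against 1.54 and 3.08) and WT1 (3.38, against 0 and 0), and below both at PAX8 (4.91, against 7.37 and 7.98) and HNF4A (1.12, against 2.79 and 2.24). At the other genes it equalled or lay between the replicate values. Counts above both replicates at 2 of 8 genes and below both at 2 of 8 compare with 29.6% and 30.9% of all protein-coding genes, so the shares over the 8 genes were near the background. In the flanks of 1 Mb the order of the lines at PAX2 was the other way, with 64 peaks in 786-O, against 85 and 90 in the Caki-1 replicates. At PAX8 the flanks held 53 peaks in 786-O, against 59 and 72, and at HNF4A 76, against 82 and 96.

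**Figure D3:**
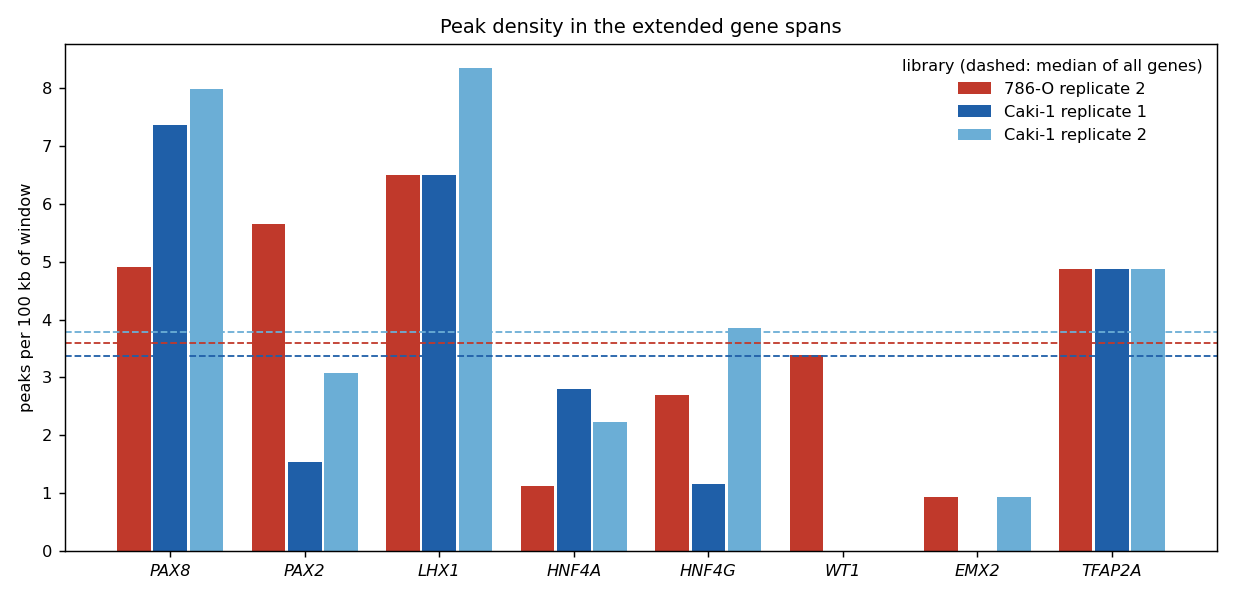
Peaks per 100 kb of extended gene span for the 8 genes, with bars for 786-O replicate 2 and for Caki-1 replicates 1 and 2 and dashed lines at the median of all protein-coding genes in each library. At WT1 the 786-O bar reaches 3.38 and both Caki-1 values are 0, while the 3 bars of TFAP2A are equal at 4.88.

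Counted by gene ends within 1 kb, 2 of the 8 genes were marked in 786-O (HNF4G and WT1), against 3 in each Caki-1 replicate (HNF4G, PAX8 and TFAP2A). The background was 52.7% of all protein-coding genes in 786-O, against 55.1% and 57.6% in the Caki-1 replicates. Of the 8 genes, 4 had a gene-end peak in no library, against 34.6% of all genes. WT1 alone was marked in 786-O and bare in Caki-1 (4.02% of all genes), while PAX8 and TFAP2A were marked in both replicates of Caki-1 and bare in 786-O (7.03%). With the other line required to have no peak within 5 kb of an end, WT1 still held (2.37% of all genes), as did TFAP2A (4.33%), but PAX8 did not.

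Merging the peaks of the 3 libraries gave 80 regions in the 8 windows. 786-O alone covered 23 of them, or 28.8% (95% exact binomial interval 19.2 to 40.0, counting error only), against 24.5% of all 116359 merged regions. Both Caki-1 libraries without 786-O covered 10, or 12.5% (6.16 to 21.8), against 13.8%. All 3 libraries covered 17, or 21.3% (12.9 to 31.8), against 20.5%. The set as a whole was thus split between the lines much as the lists were, and the split was uneven within it. At WT1 786-O alone covered 5 of 5 regions and at PAX2 7 of 14, but at PAX8 2 of 17, where both Caki-1 libraries without 786-O covered 5. Requiring a single Caki-1 library changed the Caki-1 count from 10 to 24 without replicate 1 and to 20 without replicate 2.

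**Figure D4:**
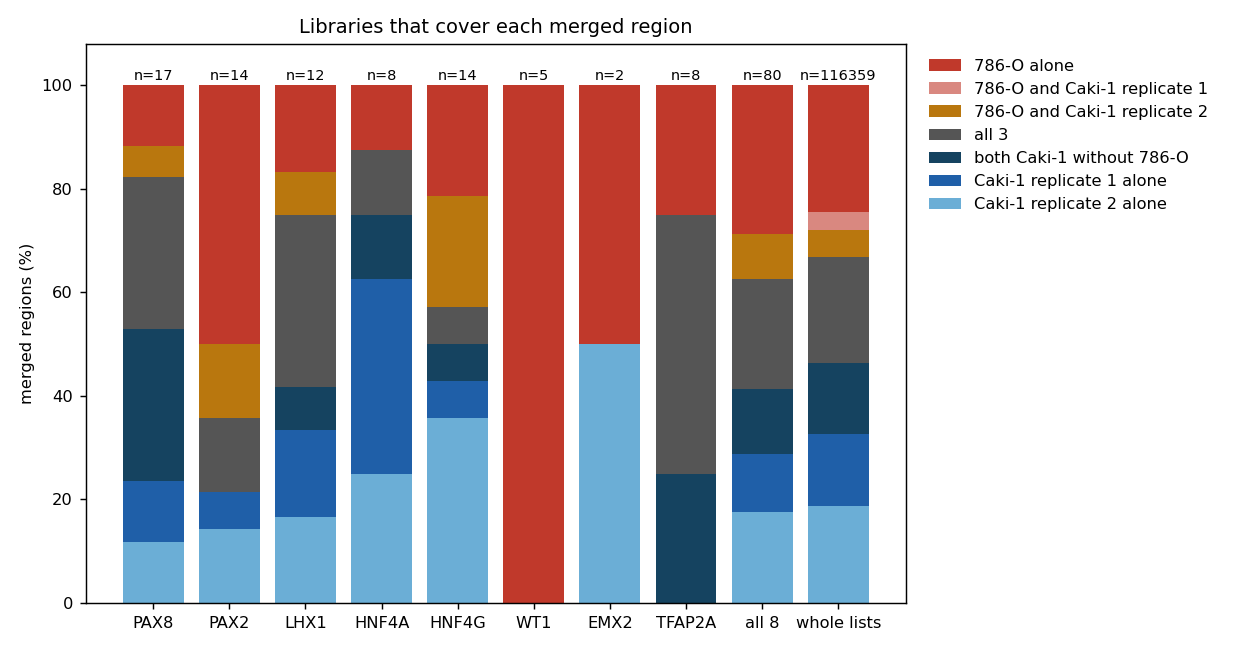
Share of merged regions by the libraries that cover them, in % of the regions of each gene window, of all 8 windows and of the whole lists, with the number of regions above each bar. The WT1 bar is entirely 786-O alone, TFAP2A and LHX1 have the highest shares in all 3 libraries, and the bar of all 8 genes is close to that of the whole lists.

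Of the 47 peaks of 786-O in the windows, 34.0% (20.9 to 49.3) overlapped a peak of Caki-1 replicate 1 and 51.1% (36.1 to 65.9) one of replicate 2, against 44.5% and 47.8% of all 786-O peaks. Between the Caki-1 replicates, 75% (57.8 to 87.9) of the replicate 1 peaks and 55.1% (40.2 to 69.3) of the replicate 2 peaks were shared, against 66.2% and 58.8% of all peaks. Each interval over the windows held the value of the whole list. The intervals treat peaks of the same window as independent and may be too narrow. In the 16 pairs of overlapping peaks of 786-O and Caki-1 replicate 1, the summits lay a median of 31.5 bp apart, with 12 pairs within 200 bp and the widest gap, 371 bp, at the intragenic PAX8 site inside PAX8-AS1.

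Of the window peaks in 786-O, 5 of 47 touched an own promoter window or lay within 1 kb of an own end. Another 15 lay elsewhere inside the gene, 6 at the end of a neighbour and 21 outside. The same counts were 4, 10, 6 and 16 of 36 in Caki-1 replicate 1, and 4, 18, 6 and 21 of 49 in replicate 2. These counts describe the windows, which reach 50 kb past each end, and the same split over the windows of all genes was not computed. Ranks above 50 were held by 28 of the window peaks in 786-O, against 24 and 26 in the Caki-1 replicates, or 59.6%, 66.7% and 53.1%. Over the whole lists the shares were 49.9%, 51.8% and 50.8%.

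Of 35 other regulators of kidney development and the nephron, 19 were marked at a gene end in 786-O, against 17 and 19 in the Caki-1 replicates, which is 54.3%, 48.6% and 54.3% beside the backgrounds given above. The examples, chosen among those whose lowest rank over the 3 lists was highest, were OSR2, an odd-skipped factor (rank 96.8 in 786-O, against 95.7 and 92.8), and HEY1, an effector of Notch (95.7, against 80.8 and 69.0). IRX3, SIX4, TEAD1 and POU3F3 had one in 786-O, with ranks of 85.5, 76.4, 63.3 and 55.1, and no peak within 5 kb of an end in Caki-1. FOXD1, TBX18, FOXC1 and EYA1 had one in both Caki-1 replicates and none within 5 kb in 786-O, with ranks from 29.0 to 86.7. SIX2 and ZNF750 had one in Caki-1 replicate 2 alone and none within 5 kb in 786-O.

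Of 35 regulators of other lineages, 9 carried a gene-end peak in 786-O, against 13 and 14 in the Caki-1 replicates (25.7%, 37.1% and 40% of the list). Over all protein-coding genes the shares were higher in each library, at 52.7%, 55.1% and 57.6%. With a window of 500 bp the counts of the list were 5 in 786-O, against 8 and 13 in the Caki-1 replicates. The shares of all genes at that window are not given here. KLF4, GATA1 and NEUROG2 were the 3 with one in all libraries, with ranks in 786-O of 60.9, 40.3 and 26.3. FOXA2 and SOX10 had one in 786-O and no peak within 5 kb in Caki-1, with ranks of 79.1 and 51.9. PAX3, a paired-box factor of neural crest and muscle, had one in both Caki-1 replicates (ranks 89.3 and 90.8) and none within 5 kb in 786-O, as did SOX2, NKX2-5 and FOXA1. The shares of all genes with these patterns were 2.37% for 786-O and 4.33% for both Caki-1 replicates. LHX3 (replicate 1) and CDX2 (replicate 2) were marked in a single library of Caki-1 and had none within 5 kb in 786-O. Of the 8 kidney lineage genes, 25% were marked at an end in 786-O, against 37.5% and 37.5% in the Caki-1 replicates. These shares were also below those of all genes.

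By the summed difference in peaks per 100 kb over the 3 libraries, the kidney regulators close to WT1 included SALL1 (3 peaks in 786-O, against 0 and 1 in the Caki-1 replicates). Those close to PAX2 included PPARA (10, against 3 and 5), and those close to PAX8 included TEAD1 (20, against 28 and 27). HOXD11 was among those close to LHX1 (7, against 8 and 7). TFAP2A was closest to FOXC1 and OSR2, HNF4A to OSR1 and MECOM, HNF4G to IRX5 and EYA1, and EMX2 to TCF21 and TFAP2B. The likeness is one of peak density over 3 libraries and nothing more.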

How the data were processed

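H4K12la was profiled by CUT&Tag in 1 library of 786-O and 2 of Caki-1. Per the submitters' processing notes, fastp 0.19.6, Bowtie2 and deepTools were used with the builds hg38 and GRCh38, in roles not given. Each library has its own deposited peak list without a header, so replicates were not pooled. The sources used here give no caller, threshold, control or read depth. Column 6 is a score deposited by the authors without a stated unit, and it was converted to a percentile rank within its list. Column 5 lay inside the peak in 100% of lines of the lists of 786-O and Caki-1 replicate 1 and was read as a summit. In Caki-1 replicate 2 it did so in 9.65% of lines and was not used.

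Gene spans came from a RefSeq table of 59792 genes on GRCh38.p14 and starts from RefSeq promoter windows of 300 bases. All 8 genes were found by symbol, and 6 had a promoter entry. Peaks were assigned to a gene by an overlap of at least 1 bp with its span extended by 50 kb, and to a gene end within 1 kb. Peaks of different libraries that overlapped by 1 bp or more counted as shared. Shares carry 95% exact (Clopper-Pearson) intervals, which cover counting error only and treat peaks of the same window as independent. No test between lines was made. The counting steps were tested on simulated peaks with Python 3.11.15, pandas 2.3.3 and scipy 1.17.1.

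All 8 genes were named, with their start and end peaks, the highest-ranked peak of each window, and regions of 1 line ranked above 50. From the other lists, the 3 genes with the highest lowest rank and those specific to a line by a guard of 5 kb were named, and the 2 kidney regulators nearest in peak density to each gene. Some genes that this rule names are not reported here. The 1 Mb flanks, the WT1 stretch without peaks and the promoter-window counts were added after values were seen, and the genes and lists were chosen with earlier results of these data known. Alternatives were other extensions and end windows, peak midpoints, other overlaps, peaks ranked above 50 and leaving out each Caki-1 replicate. The alternatives for the promoter windows were chosen after the data were seen.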

Additional observations from a re-analysis of the deposited data

How the results depend on the processing

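Total peaks in the 8 windows were 20 in 786-O, against 13 and 21 in the Caki-1 replicates, with no extension of the spans, 26, against 19 and 28, with 10 kb, and 69, against 64 and 75, with 100 kb. Among peaks ranked above 50 they were 28, against 24 and 26. Genes with an end peak were 2 of 8 in 786-O with a window of 3 kb, against 4 and 5 in the Caki-1 replicates. With 5 kb they were 5, against 4 and 6. For regulators of other lineages the counts with 500 bp were 5 in 786-O, against 8 and 13 in the Caki-1 replicates. With 5 kb they were 14, against 16 and 18. The shares of all genes with an end peak at windows other than 1 kb are not given here. The share of Caki-1 replicate 2 peaks overlapped by replicate 1 was 73.1% among peaks ranked above 50. With most of the promoter window covered, an alternative chosen after the data were seen, 2 of 12 windows counted in 786-O, and those 2 were bare in Caki-1. Leaving out a Caki-1 replicate, regions in 786-O alone ranged from 23 to 31 and regions in Caki-1 without 786-O from 20 to 24, against 10 when both are required. The extensions, end windows and replicates left out change how many bases or libraries are searched. Of all settings of the main counts and shares, values above included, 57 stayed within 1.5 times or within the interval and 21 moved. Counts of single genes moved more often, in 55 of their settings, while 65 stayed within 1.5 times. The HNF4G count in 786-O went from 7 to 1 among peaks ranked above 50. With an extension of 100 kb the WT1 window held 7 peaks in 786-O, against 1 and 2 in the Caki-1 replicates. No paired analysis was possible because the lines share only 1 replicate number. The unknown depth limits every absence of a peak, and 786-O has 1 library.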
